A study of Ovis aries with 4 samples.

Results

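The TPM1-low FABP4-negative EDNRA/IGFBP7 cells are a class of cells of the lactating sheep mammary gland that carry transcripts of the endothelin receptor gene EDNRA and of IGFBP7, but few of the contractile gene TPM1 and none of the fatty acid carrier gene FABP4. They were chosen from single-cell counts by a rule. Barcodes with at most 20% of their unique molecular identifiers (UMIs, one per captured transcript) in 13 mitochondrial genes were kept. A gate then took those with at least 1 UMI each of EDNRA and IGFBP7, fewer than 5 of DCN, and none of CD3E, EPCAM, KDR, SELP, RELN or C1QA. Gated cells with TPM1 under 10 per 10000 UMIs and no FABP4 UMI are the class described here. It held 1364 cells, out of 3982 gated cells, 38886 kept barcodes and 39246 barcodes in all. The other 2618 gated cells fell into 2033 TPM1-high cells and 585 TPM1-low FABP4-positive cells.

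The samples were mammary gland tissue of 4 ewes, 1 droplet-based library per ewe, with no treatment in the labels. The study compared peak with late lactation, 2 ewes at each stage, and its title names fibroblasts, immune cells and collagen as its subjects. The series spells out LL as late lactation. It does not spell out LH, which was taken as peak lactation by elimination. The sources used here give no breed or age. Values per library are given below in the order LH replicate 1, LH replicate 2, LL replicate 1, LL replicate 2.

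EDNRA encodes the endothelin A receptor, through which endothelin contracts the smooth muscle of vessel walls. IGFBP7 is a secreted protein that binds insulin-like growth factors and is typical of vessels. Mural cells, which are pericytes on capillaries and smooth muscle cells on larger vessels, wrap the endothelium, and the lactating gland draws glucose, fatty acids and amino acids for milk from a dense capillary bed. TPM1 (tropomyosin) and CNN1 (calponin) are parts of the contractile apparatus of smooth muscle, whereas FABP4 is known from adipocytes and capillary endothelium.

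The class held 73, 475, 415 and 401 cells, with 340481, 1184688, 1313446 and 990745 UMIs in all. Median depth was 3412, 2324, 2886 and 2186 UMIs per cell, against 3734, 3038, 3152 and 2556 in TPM1-high cells, so the class was shallower than TPM1-high cells in every library. TPM1 had no UMI in a part of the members: 28.8%, 39.6%, 35.2% and 49.6% of them held none, and the median was 3.57, 3.78, 3.62 and 1.82 TPM1 per 10000 UMIs. LH replicate 1 gave the fewest cells and stood apart in several results below. EDNRA itself rested on a single UMI in 52.1%, 63.4%, 64.1% and 65.3% of members. TPM1 levels ran on across the limit of the rule: 9, 70, 68 and 43 members had 8 to 10 TPM1 per 10000 UMIs, with medians from 8.85 to 9.39. Just outside it, 10, 67, 43 and 43 cells had 10 to 12, with medians from 10.7 to 10.9. Pairs of libraries shared 15 to 39 barcodes, and in no pair was a shared barcode a member in both.

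Only 774 of the 20150 genes had a symbol, and the files do not pair the other IDs with names, which limits what can be named. None of 12 listed pericyte markers had one (0 of 12), and 2 of 12 smooth muscle markers did, CNN1 and TPM1. The class was therefore given no cell type name and is called by its rule. Markers of other cell types are given as summed levels. The lists hold genes that the gate or the reference cells were chosen by (CD3E, C1QA, DCN, EPCAM), so part of each gap was set by the rule. T or NK cell markers with a symbol (5 of 9) summed to 6.85 to 20.6 CPM (UMIs of a gene per 1e6 summed UMIs of the class in a library), against 793 in CD3E-positive cells. Macrophage markers (3 of 7) summed to 0 to 5.06 CPM, against 4176 in C1QA-positive cells. Fibroblast markers (5 of 11) summed to 784 to 1495 CPM, against 28037 in DCN-high cells, and most of this sum was GSN (gelsolin, an actin-severing protein). The adipocyte list (6 of 9) summed to 214, 342, 261 and 290 CPM, against 191 in DCN-high cells and 230 in KDR- or SELP-positive endothelial cells, and consisted mostly of PPARG and LPL. In that list PLIN1 was at 0 in every member, as was FABP4 by the rule. The luminal list reached 881 CPM in LH replicate 1 and is given with the subsets of the class.

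Levels of EDNRA and IGFBP7 did not set the class apart from the other gated cells. EDNRA stood at 499, 651, 539 and 661 CPM in its members and at 630, 677, 569 and 717 CPM in TPM1-high cells, slightly lower in all 4 libraries. IGFBP7 stood at 1181, 2581, 1876 and 1196 CPM against 1098, 2123, 1383 and 1186 CPM, higher in all 4. Both genes were part of the gate, so these values are descriptions.

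The receptors and signalling genes that accompany EDNRA were more abundant in the class than in TPM1-high cells. REM1, a small GTPase that restrains calcium channels, stood at 99.9, 213, 109 and 82.8 CPM, against 66.4, 81.0, 63.8 and 58.8 CPM in TPM1-high cells. AVPR1A, the vasopressin V1a receptor, stood at 20.6, 59.1, 44.2 and 50.5 CPM against 8.97, 35.8, 17.4 and 18.0 CPM. Both were higher in all 4 libraries, and REM1 was furthest apart in LH replicate 2. AGTR1, the type 1 angiotensin II receptor, stood at 2.94, 40.5, 25.1 and 24.2 CPM against 0, 2.41, 4.06 and 2.35 CPM. The level in LH replicate 1 was a single UMI, while the other 3 libraries lay apart from TPM1-high cells. In TPM1-low FABP4-positive cells the same genes reached similar or higher levels in 3 libraries (AGTR1 37.1, 52.6 and 27.4 CPM), and AVPR1A and AGTR1 had no UMI in LH replicate 1, where that class held 12 cells.

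LPL, lipoprotein lipase, had been proposed as a marker of the class, and the levels go against it. It stood at 29.4, 79.3, 60.9 and 70.7 CPM in members and at 50.2, 94.4, 69.6 and 54.9 CPM in TPM1-high cells. The members were higher in LL replicate 2 alone. The median log2 ratio to all other gated cells was -0.06, higher in 2 of 4 libraries. Transcripts of LPL were rare per cell, found in 10.96%, 17.5%, 16.4% and 15.7% of members.

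**Figure D1:**
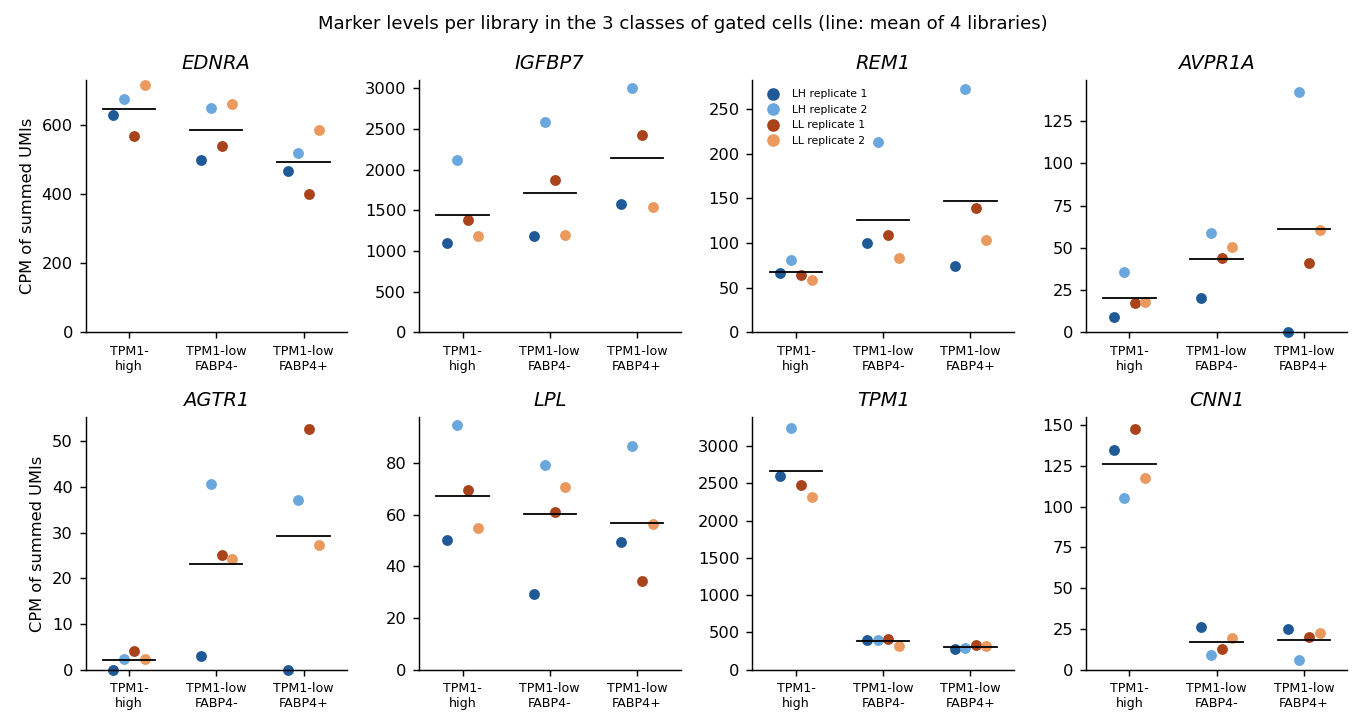
CPM of summed UMIs (y axis, linear from 0) for 8 genes in TPM1-high, TPM1-low FABP4-negative and TPM1-low FABP4-positive gated cells, with 1 point per library and a line at the mean of the 4 libraries. TPM1 and CNN1 are far lower in both TPM1-low classes, REM1, AVPR1A and AGTR1 are lowest in TPM1-high cells, and LPL overlaps across the classes.

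To see which genes separate the class, UMIs were summed per library and class and the log2 ratio of CPM + 5 was taken in each library. The rule used this contrast, so the ratios are given without a test. Of 6324 genes with at least 20 CPM in the higher class, 7 (0.111%) were at least 2-fold higher than in the other gated cells in all 4 libraries and 30 (0.474%) at least 2-fold lower. None of the 7 had a symbol. Without LL replicate 1 the counts were 66 higher and 48 lower, with the 7 and 30 genes above among them. Leaving out another library gave 8 higher and 33 lower (LH replicate 1), 20 and 31 (LH replicate 2) and 9 and 35 (LL replicate 2). The rule is easier to meet when fewer libraries have to agree, whichever is left out. Why the counts were largest without LL replicate 1 was not tested. Of the 315 genes with a symbol, 0 were 2-fold higher and 3 (0.952%) 2-fold lower, namely TPM1 and FABP4, which the rule used, and CNN1. Against TPM1-high cells alone 61 (0.961%) were 2-fold higher and 65 (1.02%) 2-fold lower of 6346 genes. Against TPM1-low FABP4-positive cells 12 (0.185%) were higher and 3 (0.0461%) lower of 6502 genes, a comparison that rests on 12 and 60 FABP4-positive cells in the LH libraries. The class thus stood further from TPM1-high cells than from the FABP4-positive cells by these counts, whose difference was not tested.

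CNN1, the calponin gene, had the lowest ratio of the genes with a symbol that the rule did not use. It stood at 26.4, 9.29, 12.9 and 19.2 CPM in members and at 127, 100, 99.6 and 85.4 CPM in the other gated cells. The groups did not overlap, and the median log2 ratio was -2.31 (SD 0.45 over 4 libraries). In TPM1-low FABP4-positive cells CNN1 was as low, at 24.7, 6.19, 20.1 and 22.8 CPM. ACTB, cytoplasmic actin, stood at 352, 424, 410 and 526 CPM against 694, 632, 663 and 848 CPM, a median log2 ratio of -0.68 with every library lower. Among the other low genes were HACD1, a fatty acid elongation enzyme (median log2 ratio -0.63), CRYAB, a small heat shock protein (-0.49), and SLC25A4, the mitochondrial ADP/ATP carrier (-0.49). Each of these was lower in all 4 libraries.

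The rest of the 15 lowest genes with a symbol held transcripts of early response, growth control and energy metabolism. BTG2, an antiproliferative gene, stood at 232, 414, 994 and 764 CPM against 528, 685, 1381 and 1148 CPM in the other gated cells, a median log2 ratio of -0.65. EGR1 and FOS, early response transcription factors, had ratios of -0.39 and -0.35. ATP5MC1, a subunit of ATP synthase, and NDUFB8, a subunit of respiratory complex I, had ratios of -0.43 and -0.38. IGFBP5 (-0.47), CALM2, which encodes calmodulin (-0.47), the survival gene BCL2L1 (-0.41), ST7 (-0.50) and PLIN2, a lipid droplet coat protein (-0.38), completed the list. All 15 were also lower than in TPM1-high cells in all 4 libraries (14.1% of all genes were), but those cells are most of the other gated cells by which the 15 were chosen, and nothing is read from it. Of the 15, 0 were lower than in TPM1-low FABP4-positive cells in all 4, against 7.58% of all genes.

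The 15 highest genes with a symbol opened with epithelial transcripts. MMP7, a metalloproteinase made by epithelia, stood at 117, 25.3, 12.2 and 69.6 CPM in members against 18.4, 3.92, 5.42 and 10.9 CPM in the other gated cells. ATP1B1, which encodes the sodium pump's beta chain, reached 229, 42.2, 51.0 and 160 CPM against 38.5, 12.1, 32.1 and 22.8 CPM. ITGB6, an epithelial integrin chain, stood at 115, 38.0, 6.09 and 42.4 CPM against 11.7, 12.7, 5.78 and 9.83 CPM. These 3 had the highest median log2 ratios (2.00, 1.95 and 1.48) and spread widely between libraries (SD 0.75, 0.92 and 1.15), with LH replicate 1 and LL replicate 2 at the top. EPCAM-positive cells held 90.7 CPM of MMP7, 361 of ATP1B1 and 348 of ITGB6 on average. Of the 15 highest genes 8 were higher in those cells than in the class, and of the 15 lowest genes 6 were. The share over all genes was not taken, so nothing is read from these counts.

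SLC12A2, the sodium-potassium-chloride cotransporter, stood at 308, 252, 132 and 208 CPM against 110, 88.5, 72.2 and 103 CPM. Its median log2 ratio was 1.21 with an SD of 0.32. PSMB8, a catalytic subunit of the immunoproteasome, stood at 182, 124, 97.5 and 105 CPM against 46.8, 51.6, 68.6 and 55.4 CPM. TIMP1, a metalloproteinase inhibitor, stood at 526, 684, 831 and 498 CPM against 222, 370, 561 and 382 CPM. SPARC, a matricellular protein, stood at 241, 187, 171 and 234 CPM against 90.3, 94.0, 125 and 173 CPM. The groups of libraries did not overlap for SLC12A2 or PSMB8, whereas they overlapped for TIMP1 and SPARC, in which each member value lay above that of the other gated cells in its own library. Others of the high genes were CCND3 (cyclin D3, median log2 ratio 1.18), GGTA1 (a galactosyltransferase, 0.73), SERPINB1 (a protease inhibitor of leukocytes and epithelia, 0.72), B4GALT1 (a Golgi galactosyltransferase, 0.67), CD52 (a lymphocyte surface peptide, 0.65) and FGF12 (an intracellular fibroblast growth factor homologue, 0.65). TPM1-high cells are most of the other gated cells, so the 15 genes were chosen in part against them: all 15 were higher than in TPM1-high cells in all 4 libraries (24.9% of all genes were), from which nothing is read. Of the 15, 5 were higher than in TPM1-low FABP4-positive cells in all 4, against 12.4% of all genes.

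**Figure D2:**
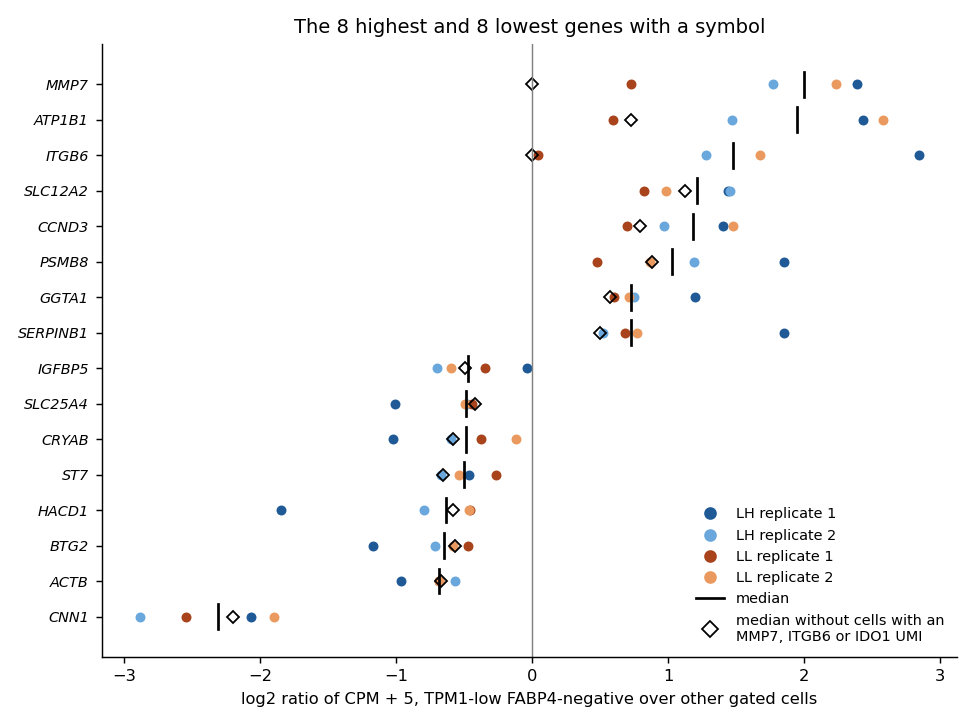
Log2 ratio of CPM + 5 in TPM1-low FABP4-negative cells over the other gated cells (x axis) for the 8 highest and 8 lowest genes with a symbol, with 1 point per library, a bar at the median and an open diamond at the median without cells that held a UMI of MMP7, ITGB6 or IDO1. CNN1 lies apart at -2.31, the other low genes lie between -0.68 and -0.47, and the diamond of ATP1B1 lies at 0.72, left of its bar. The diamonds of MMP7 and ITGB6 are at 0 by construction.

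The gene lists were read by their counts and medians beside those of all genes. Of all 6324 genes, 21.7% were higher and 12.3% lower than in the other gated cells in all 4 libraries, with a median log2 ratio of 0.06. Of 7 oxidative phosphorylation genes at the level floor, 5 were lower in all 4 libraries and 0 higher, with a median of -0.25. Among them ATP5PO, of ATP synthase, stood at 267, 262, 279 and 295 CPM against 314, 340, 357 and 355 CPM. Of 12 mitochondrially encoded genes 3 were higher and 1 lower in all 4, with a median of 0.03. Of 6 early response and stress genes 4 were lower and 1 higher (median -0.26). Of 4 contractile and actin genes 2 were lower, TPM1 and CNN1, while RHOA (-0.02) and CFL1 (-0.03), which regulate actin, showed no consistent side. Of 10 cytokine and NF-kappa-B genes 2 were higher in all 4 and 0 lower (median 0.33). IRF1, an interferon response factor, had a ratio of 0.54. Of 9 matrix genes 3 were higher and 0 lower (median 0.08). Of 6 lipid uptake and storage genes 1 was higher and 3 lower, FABP4 of the rule among them (median -0.18). PPARG, the fat cell transcription factor, stood at 185, 260, 197 and 217 CPM against 132, 207, 211 and 250 CPM, and was higher in the LH libraries alone. FABP5, a fatty acid carrier, had a ratio of -0.29. In the insulin-like growth factor list IGFBP6 stood at 1527, 1037, 1010 and 709 CPM against 430, 577, 743 and 594 CPM, a ratio of 0.64 that was largest in LH replicate 1, where 77.1% of the IGFBP6 UMIs lay in the 16 cells with a UMI of MMP7, ITGB6 or IDO1 described next.

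The class was not uniform. A subset of 91 members (6.67%) held a UMI of MMP7, ITGB6 or IDO1, a gene list chosen after the values were seen. Their shares were 21.9%, 7.79%, 2.89% and 6.48% of the members per library. Such UMIs were not particular to the class. They were found in 2.86%, 4.62%, 1.41% and 3.45% of TPM1-high cells. Among TPM1-low FABP4-positive cells the shares were 0%, 6.67%, 3.30% and 2.92%, above that of the class in LL replicate 1. A further 496 members (36.4%) held REM1, AVPR1A or AGTR1 and none of those 3 genes, and 777 (57.0%) held neither set. The MMP7 subset was deeper, with medians of 8119, 3050, 4023 and 4600 UMIs per cell, against 3148, 2448, 3095 and 2250 in the REM1 subset. Subsets were cut by the presence of genes that depth makes easier to see, and they were given no cell type names.

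The 91 cells held 12.2% of the members' UMIs but far more of the epithelial transcripts. They held 76.8% of the UMIs of ATP1B1 (44.8% to 100% per library) and 82.6% of those of MET, the hepatocyte growth factor receptor (50% to 100%). For SPP1 (osteopontin, abundant in milk) the share was 59.7%, or 97.3%, 32.9%, 14.3% and 38.6% per library, so that LH replicate 1 carried it. For CLDN7, a tight junction claudin, it was 62.0%, or 100%, 43.8%, 60.0% and 22.2%. SPP1 stood at 1911, 930, 34.1 and 128 CPM in them, against 15.5, 168, 0 and 26.5 CPM in the REM1 subset. Within the subset SPP1 was higher in both LH libraries than in the LL libraries. TIMP3, an inhibitor of metalloproteinases, stood at 219, 1368, 869 and 909 CPM in the MMP7 subset against 1422, 2467, 2721 and 3597 CPM in the REM1 subset, and the values did not overlap. EDNRA stood at 192, 429, 307 and 331 CPM against 711, 573, 476 and 583 CPM, but the gate required 1 UMI of it, most members held no more, and the MMP7 subset was deeper, so its level per UMI is partly set by depth. LPL was found in the MMP7 subset in LH replicate 2 alone (31.8 CPM). TIMP1 did not follow the split, with means of 622 CPM in the MMP7 subset, 684 in the REM1 subset and 592 in the remainder. The REM1 subset and the remainder were close in most of these genes, among them TIMP3 (means 2552 and 2257 CPM), LPL (66.9 and 73.5 CPM) and FGF12 (102 and 90.3 CPM).

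Other measures of epithelial RNA were also highest in LH replicate 1. Members with at least 3 UMIs over 11 luminal genes made up 21.9%, 8.21%, 3.61% and 2.74% of the class. In LL their order was opposite to that of the MMP7 subset, which was the larger share in replicate 2. Luminal markers with a symbol (7 of 10) summed to 881, 402, 92.9 and 173 CPM in members and to 75.4, 180, 72.5 and 159 CPM in TPM1-high cells, with EPCAM at 0 by the rule. EPCAM-positive cells reached 7913 CPM on average. In the setting without the MMP7 subset the 91 cells were left out. The other gated cells with a UMI of MMP7, ITGB6 or IDO1 were left out as well, wherever that setting compares the class with them. The ratios were then 0.72 for ATP1B1 and 0.79 for CCND3. SLC12A2 (1.12), PSMB8 (0.88), TIMP1 (0.73), SPARC (0.70) and FGF12 (1.09) stayed high and CNN1 stayed low (-2.20). Of the 15 high genes 11 and of the 15 low genes all 15 had a ratio that did not shrink by more than 1.5 times in this setting. FGF12 rose from 0.65, and MMP7 and ITGB6 fell to 0 by construction. None of the 7 genes 2-fold higher in the whole class was 2-fold higher in this setting (0 shared), against 23 of the 30 lower genes that stayed 2-fold lower. Whether the epithelial transcripts were made in these cells, came from doublets or came from free RNA was not tested beyond these values. With the highest 5% of doublet scores per library left out, 6 of the 7 higher and 28 of the 30 lower genes were still called.

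**Figure D3:**
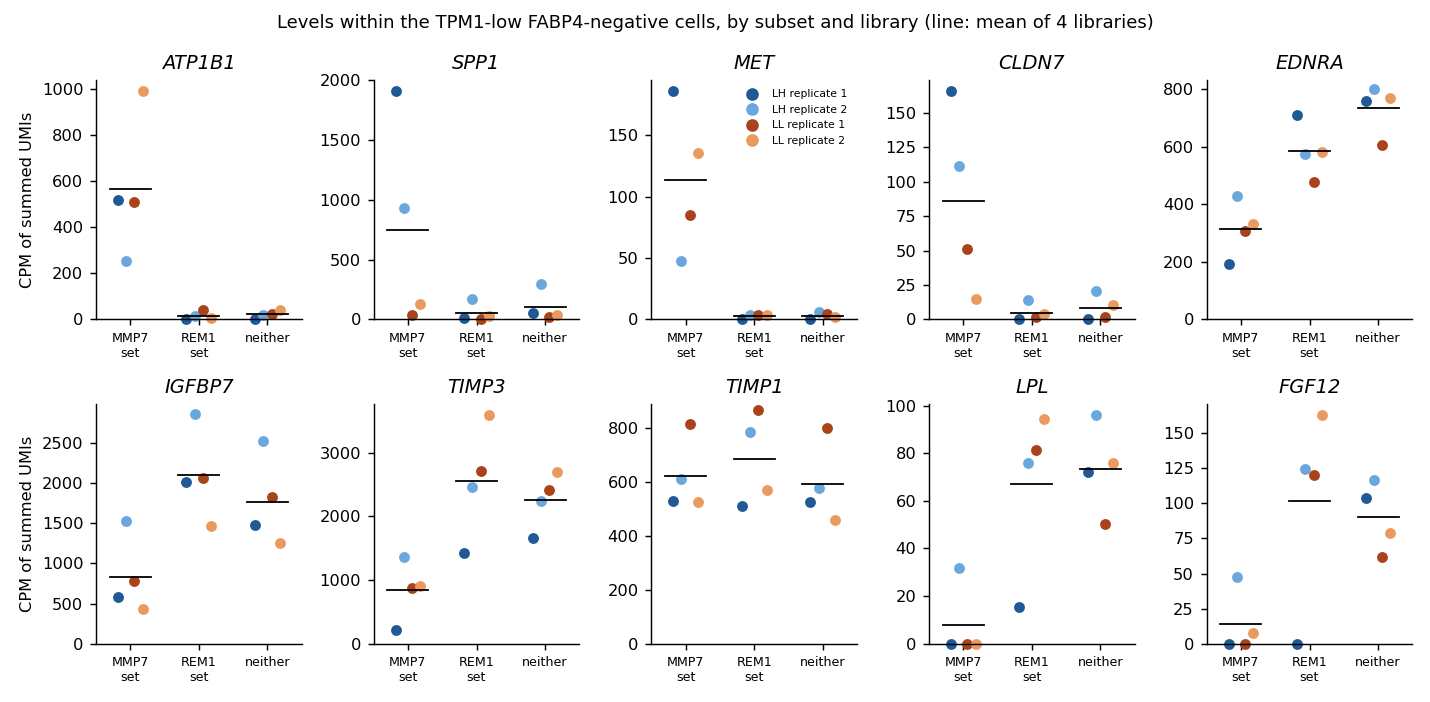
CPM of summed UMIs (y axis, linear from 0) for 10 genes within the TPM1-low FABP4-negative cells, by subset: cells with a UMI of MMP7, ITGB6 or IDO1 (MMP7 set, 91 cells), cells with REM1, AVPR1A or AGTR1 and none of those (REM1 set, 496 cells), and cells with neither (777 cells), with 1 point per library and a line at the mean. ATP1B1, MET and CLDN7 are high in the MMP7 set, where EDNRA, TIMP3, LPL and FGF12 are low, and TIMP1 is level.

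The share of the class among gated cells was nearly the same at both stages. It was 32.4% in each LH library, and 34.99% and 36.3% in LL, with exact Clopper-Pearson 95% intervals of 26.4% to 39.0%, 30.01% to 34.9%, 32.3% to 37.8% and 33.4% to 39.2%, which cover counting error only. The LL mean was 3.22 percentage points above the LH mean. The 2 stages did not overlap, and the exact two-sided permutation p was 0.333, the smallest that 2 against 2 libraries allow. The classes beside it lay further apart: TPM1-high cells were 62.9% ± 0.91 (SD, n = 2) of gated cells in LH and 42.0% ± 0.00076 in LL, and TPM1-low FABP4-positive cells 4.71% ± 0.88 and 22.4% ± 0.92. Correspondingly, FABP4-negative cells made up 85.9% and 88.8% of the TPM1-low gated cells in LH but 60.3% and 62.6% in LL (difference -25.9 percentage points, exact permutation p = 0.333, the smallest possible). With cells thinned to 2000 UMIs the difference was -20.1 percentage points. The split is by captured UMIs: 6 of 12, 29 of 60, 103 of 273 and 111 of 240 FABP4-positive cells held a single FABP4 UMI. By median UMIs these cells were deeper than members in LH replicate 2 and both LL libraries, and shallower in LH replicate 1. FABP4 was also found in 21 of 140, 52 of 931, 73 of 498 and 126 of 464 TPM1-high cells. Of all kept barcodes the class made up 1.25%, 5.07%, 3.28% and 3.63%, and the 2 LH libraries lay on either side of the LL libraries. These are shares of dissociated cells. With summed counts, fewer transcripts per cell and fewer cells with the transcript cannot be told apart.

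**Figure D4:**
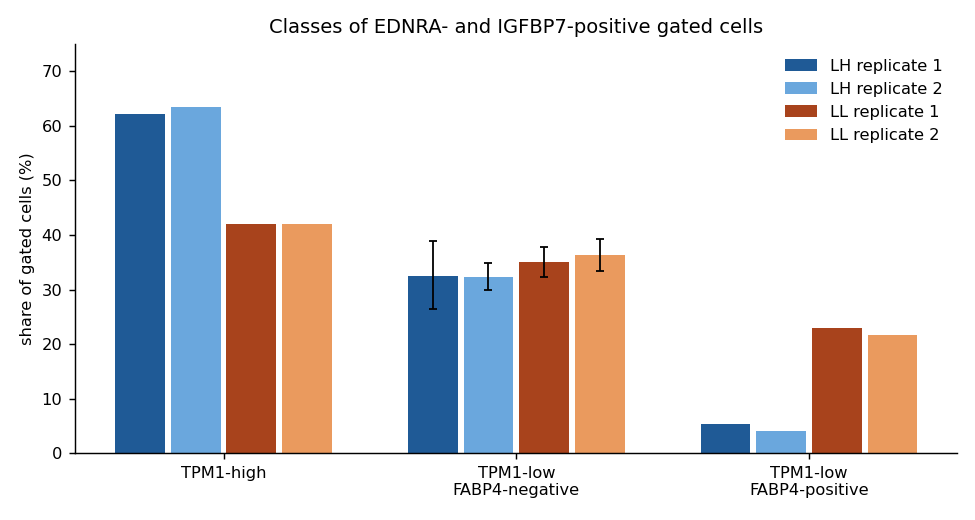
Share of gated cells (y axis, percent, from 0) in each of the 3 classes, with 1 bar per library and exact 95% intervals for counting error on the TPM1-low FABP4-negative class. That class takes 32.4% to 36.3% in every library, whereas TPM1-high cells are lower and TPM1-low FABP4-positive cells higher in both LL libraries.

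LL and LH were then compared within the class, on UMIs summed per library, to see which genes differ with the stage in these cells. No gene with a symbol or without passed the threshold: edgeR's quasi-likelihood test called 0 of 8206 genes (0%) at an adjusted p of 0.05, 332 (4.05%) were under 0.05 before adjustment, and DESeq2 called 5. With 1 library left out edgeR called 19 (LH replicate 1), 89 (LH replicate 2), 1 (LL replicate 1) and 4 (LL replicate 2), the lone library of a stage being taken to vary like the other stage. The same test called 3 of 8591 genes (0.0349%) in TPM1-high cells and 20 of 9485 (0.211%) in all other gated cells, which hold more cells. In 2864 genes (34.9%) the LH and LL values did not overlap. On simulated counts of this size the edgeR test recovered 1.52% of 2-fold, 85.0% of 4-fold and 95.98% of 8-fold changes. Most 2-fold differences could thus not have been seen. The simulation gave every gene the same spread between libraries, so its rates do not hold for genes that varied more between ewes. Observed log2 differences of 3.73 for DCN and -4.43 for SPP1 were not called by edgeR. DESeq2 gave an adjusted p of 0.0296 for DCN, past the threshold, and of 0.0823 for SPP1. The p-values measure the spread between ewes with n = 2 per stage. The 20 genes with a symbol of lowest p that did not overlap and had at least 20 CPM are given as values. None was past the edgeR threshold in the main setting, and 10 of them passed it in at least 1 alternative. Their levels are CPM scaled by TMM. Adjusted p from edgeR was 0.818 for DCN and 0.978 for the other 19.

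Growth arrest and early response genes were among those higher in LL. BTG2 stood at 241 and 406 CPM in LH, against 1041 and 771 CPM in LL, a log2 difference of 1.47 (SE 0.31). CDKN1A, the p21 cell cycle inhibitor, stood at 229 and 364 CPM against 777 and 547 CPM (log2 1.14, SE 0.31). ZFP36, which degrades inflammatory messenger RNAs, stood at 1301 and 1926 CPM against 3733 and 3165 CPM (log2 1.09, SE 0.25). In each of these the higher LL library was replicate 1, and LH replicate 1 was the lowest library. NFKBIA, the inhibitor of NF-kappa-B, had a log2 difference of 0.84, EGR1 of 0.71, CCND2 (cyclin D2) of 0.99, KYNU (kynureninase) of 0.89, SLC30A7 (a zinc transporter) of 1.05 and SRP54 (of the signal recognition particle) of 0.71, which was -0.029 with equal cell numbers per library. In TPM1-high cells of the same ewes BTG2 differed by 1.23, CDKN1A by 1.19 and SRP54 by 0.018. All 9 differences of these genes had the same sign there. The share over all genes was not taken, so nothing is read from it.

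DCN, the fibroblast proteoglycan decorin, had the highest log2 difference of the 20 genes, but the gate used it. It stood at 3.05 and 4.97 CPM in LH, against 80.5 and 40.8 CPM in LL, from 1, 6, 101 and 40 UMIs (log2 3.73, SE 0.56). DCN-high cells averaged 17291 CPM in LH, against 16586 CPM in LL. In EPCAM-positive cells DCN averaged 9.22 CPM in LH, against 168 CPM in LL, and in CD3E-positive cells 56.6 and 708 CPM. In endothelial cells it averaged 543 and 575 CPM. These averages weigh the libraries alike, and LH held few such cells. There were 214 and 25 DCN-high cells in LH, against 1940 and 1136 in LL, and 46 and 82 endothelial cells, against 1213 and 255. The log2 difference of DCN in TPM1-high cells was 4.64. The level was thus higher in LL in EPCAM- and CD3E-positive cells and nearly level in endothelial cells, and the part of such levels in the result was not tested.

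Among the 10 genes lower in LL were several whose UMIs lay in part in the MMP7 subset. SPP1 stood at 902 and 295 CPM in LH, against 11.2 and 44.8 CPM in LL (log2 -4.43, SE 0.78). In EPCAM-positive cells SPP1 averaged 4330 CPM in LH, against 1183 CPM in LL. CLDN7 stood at 76.2 and 26.5 CPM against 3.98 and 9.17 CPM (log2 -2.84, SE 0.69). SERPINB1 stood at 213 and 56.3 CPM against 51.0 and 27.5 CPM (log2 -1.66, SE 0.65). Without the 91 cells of the MMP7 subset the differences were -3.01 for SPP1 and -0.33 for SERPINB1, and CLDN7 was too low to be tested. These transcripts were highest in LH replicate 1, where that subset was largest. SPP1 and CLDN7 were also well above both LL libraries in LH replicate 2, whereas SERPINB1 there lay near LL replicate 1 (56.3 and 51.0 CPM). In LH replicate 1 the subset held 90.0% of the SERPINB1 UMIs, but 27.9%, 15.6% and 29.6% in the other libraries. In TPM1-high cells the log2 differences were -2.70 for SPP1, -1.27 for CLDN7 and -1.13 for SERPINB1.

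ABHD5, ASIP and IL18 differed by similar amounts without the 91 cells. ABHD5, an activator of triglyceride lipolysis, stood at 45.7 and 43.0 CPM in LH, against 15.9 and 16.3 CPM in LL (log2 -1.45, SE 0.32; -1.53 without those cells). ASIP, the agouti signalling protein, stood at 271 and 489 CPM against 171 and 139 CPM (log2 -1.31, SE 0.32; -1.28 without). IL18, an inflammasome cytokine, stood at 128 and 76.2 CPM against 31.1 and 24.4 CPM (log2 -1.81, SE 0.35; -1.42 without). The replicates of ABHD5 lay close together within each stage, whereas those of ASIP and IL18 spread more in LH. ASIP was lower in LL in DCN-high cells too, at 573 CPM in LH, against 245 CPM in LL, and in EPCAM-positive cells at 354 and 177 CPM. So was ABHD5, at 32.4 and 11.5 CPM in DCN-high and 139 and 68.1 CPM in EPCAM-positive cells. ABHD5 averaged 92.3 and 37.2 CPM in CD3E-positive, 109 and 30.1 CPM in endothelial and 111 and 31.3 CPM in C1QA-positive cells. The LH averages of DCN-high and endothelial cells rest on the few cells given above. ID3 (an inhibitor of differentiation, -0.72, and -1.09 without the 91 cells), PRDX2 (peroxiredoxin 2, -0.59), B2M (beta-2-microglobulin, -0.63) and SLC12A2 (-0.69) completed the list. The last 3 were -0.34, -0.37 and -0.35 without the 91 cells. No difference between the class and the other gated cells was called in any of the 20 genes (edgeR adjusted p of at least 0.477).

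**Figure D5:**
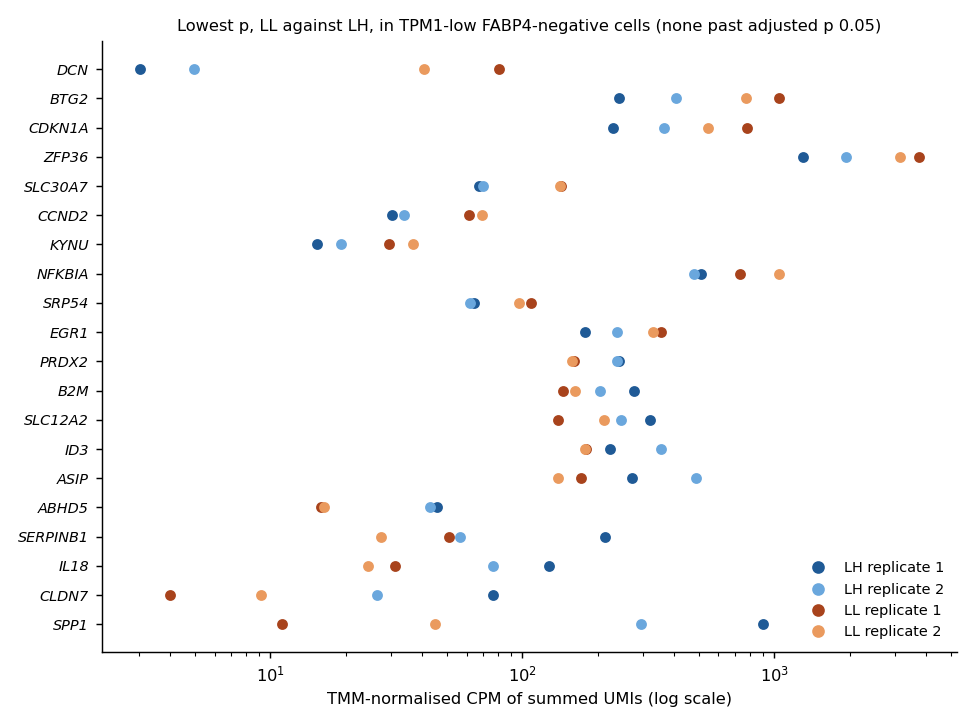
TMM-normalised CPM (x axis, log scale) in TPM1-low FABP4-negative cells for the 20 genes with a symbol of lowest p between LL and LH that did not overlap, with 1 point per library, ordered by log2 difference. The 10 genes from DCN to EGR1 are higher in both LL libraries and the 10 from PRDX2 to SPP1 lower, and none passed the edgeR threshold.

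The gene lists held 0 called genes between the stages. The median log2 difference over all 8206 genes was -0.02. The growth arrest list had a median of 0.67, with 4 of 6 genes higher in LL without overlap and 0 lower. Of all 8206 genes 34.9% did not overlap in either direction. In the early response list (median 0.48) 5 of 6 were higher and 1 lower, and in the clock list (median 0.49) 4 of 5 were higher and 0 lower. In the cytokine and NF-kappa-B list (median 0.35) 7 of 15 were higher and 2 lower. Of the 10 matrix genes tested (median 0.34) 3 were higher and 0 lower, and TIMP3, the most abundant, had a log2 difference of 0.71. Of the 3 vasoactive receptor genes tested 0 were without overlap, and EDNRA (0.09), AVPR1A (0.15) and AGTR1 (-0.06) differed little in value. The 6 lipid uptake and storage genes had a median of -0.02, PPARG and LPL among them at -0.09 and 0.20. REM1 had a log2 difference of -0.71 (SE 0.36), with values that overlapped.

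The stage difference of the class was also tested against that of the other gated cells, with the ewe as a block. edgeR called 4 of 9111 genes (0.0439%), of which 0 had a symbol. Before adjustment 516 (5.66%) were under 0.05. With 1 library left out the count was 90 (LH replicate 1), 185 (LH replicate 2), 3 (LL replicate 1) and 26 (LL replicate 2). The other gated cells changed their make-up between the stages, since FABP4-positive cells were 4.71% of all gated cells in LH and 22.4% in LL. Against TPM1-high cells alone 1 gene was called. Of the genes with a symbol, AGTR1 had the lowest p. In the other gated cells it stood at 0, 4.24, 22.4 and 10.9 CPM, higher in both LL libraries, while in the class it stood at 2.94, 40.5, 25.1 and 24.2 CPM with overlapping stages (difference of the log2 differences -2.64, SE 0.58, edgeR adjusted p = 0.194). The adjusted p for AGTR1 was 0.0427 without the MMP7 subset, 0.00649 without LH replicate 1 and 0.0403 without LL replicate 2 (edgeR). It was 0.656 without LH replicate 2 and 1.00 without LL replicate 1, with the replicate block and with DESeq2, and 5 of 16 alternatives passed. Against TPM1-high cells the value for AGTR1 was -1.13 (edgeR adjusted p = 1.00). PLAU, the urokinase plasminogen activator, had a value of -1.03 (edgeR adjusted p = 0.347) and IGFBP6 of -0.91 (edgeR adjusted p = 0.396). The chemokine gene XCL1 had a value of 1.47 (edgeR adjusted p = 0.466), and TPM1, a gene of the rule, of 0.67 (edgeR adjusted p = 0.345).

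The 4 called genes had IDs alone. ENSOARG00000009143 stood at 23.5, 43.0, 2870 and 3.03 CPM in the class and at 6.69, 89.1, 164 and 0.517 CPM in the other gated cells (difference of the log2 differences 4.92, SE 0.42, edgeR adjusted p = 0.000264). LL replicate 1 was far above the rest, and a single cell of 24139 UMIs held 3560 of its 3770 UMIs there. Without that cell the level in LL replicate 1 was 163 CPM, and with cells of at most 10000 UMIs the value was 0.90 (edgeR adjusted p = 0.838). ENSOARG00000009438 stood at 2344, 5816, 5977 and 5844 CPM in the class and at 597, 1820, 5130 and 4583 CPM in the other gated cells, a value of -1.49 (SE 0.13, edgeR adjusted p = 0.000264). The other gated cells of both LL libraries lay above those of LH, and the FABP4-positive cells among them held 3432, 9693, 9968 and 9224 CPM of it. Against TPM1-high cells alone its value was -0.86 (edgeR adjusted p = 0.590). The remaining 2 genes had values of -2.17 and -1.75 (edgeR adjusted p = 0.00220 and 0.0171), and -1.41 and -1.58 against TPM1-high cells alone (edgeR adjusted p = 0.998 and 0.560).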

How the data were processed

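Dissociated mammary cells of 4 ewes were sequenced in droplet libraries, 1 per ewe. The authors deposited raw UMI counts per gene and cell barcode, made with Cell Ranger (5.0.1 per the submitters' processing notes, 7.2.0 per the file headers). STAR and Seurat 3.2.0 stand in the same notes, without their roles, and a genome build is not given in the sources used here. Library totals were 28015149, 56178927, 60303230 and 65339993 UMIs, and intervals cover counting error only. Nothing in the labels says more of the ewes, so p-values measure the spread between these samples.

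The members, the gene lists and the tests were chosen with earlier results of these data known. Doublets were kept. A doublet score (scanpy 1.11.5, 30 principal components, 2 simulated doublets per cell) had an automatic threshold that marked 465 to 592 cells in 3 libraries but 0 in LH replicate 1, and leaving out the highest 5% per library is an alternative.

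UMIs were summed per library and class. Ratios used CPM + 5, with at least 20 CPM in the higher class. LL and LH were compared with edgeR 4.0.16 (quasi-likelihood test, TMM scaling, filterByExpr with a minimum count of 10, Benjamini-Hochberg adjustment over all genes, R 4.3.3) and DESeq2 1.42.0 as an alternative. The difference between classes was fitted as an interaction with the ewe as block. Shares were compared by exact permutation (scipy 1.17.1). Both edgeR fits were tested on simulated data, in which every gene of a class had the same spread between libraries. The interaction test recovered 0% of 2-fold, 43.5% of 4-fold and 90.5% of 8-fold changes there.

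Named genes were the 15 highest and 15 lowest median ratios among symbols on the same side in all 4 libraries at 50 CPM or more, the 20 symbols of lowest p between stages without overlap and at 20 CPM or more, the called interaction genes with the 5 symbols of lowest p, and the most abundant genes of each list. Of the 15 highest, 2 are not reported here by name. Alternatives changed the limits on TPM1, EDNRA, depth and mitochondrial UMIs, left out doublets, cells with luminal UMIs or single libraries, thinned cells to 2000 UMIs, equalised cell numbers, and changed the filter, scaling and tool. Those on the MMP7 subset, luminal UMIs, cells above 10000 UMIs and the crossed pairing were chosen after seeing the data.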

Additional observations from a re-analysis of the deposited data

Results flagged for a closer look

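The stage difference in TPM1-low FABP4-negative cells differed from that in the other gated cells in 4 genes by edgeR's interaction test, none with a symbol. The values were 4.92 for ENSOARG00000009143 and -1.49 for ENSOARG00000009438, and -2.17 and -1.75 for the remaining pair, as differences of log2 differences. The positive value rests on 1 cell of LL replicate 1, which held 94.4% of the gene's UMIs there. Against TPM1-high cells alone the first gene alone was called.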

How the results depend on the processing

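The LL minus LH difference in the class's share of gated cells stayed positive in all 13 alternatives, from 2.57 to 5.57 percentage points. Genes called between LL and LH in the class numbered 0. The count was 4 in cells under 3 luminal UMIs, 3 without the MMP7 subset, 1 in cells of at most 10000 UMIs, 5 with DESeq2 and 167 with no filter on low counts (63 higher, 104 lower). Leaving out 1 library gave 1 to 89. The replicate block called 0 (198 before adjustment), and 2 with DESeq2. Replicate numbers came from different ewes. Deviations from the stage mean correlated at -0.254 by replicate number and 0.254 crossed, over 5975 genes. With 2 libraries per stage these are mirror values by construction, so they cannot show whether samples were paired. Crossed pairing called 2. The log2 difference of SRP54 was -0.029 with equal cell numbers.

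Genes whose stage difference departed from that of the other gated cells numbered 4. The count was 2 with TPM1 below 5 per 10000 UMIs, 18 in cells of at least 2000 UMIs, 1 with at least 2 EDNRA UMIs, 59 under 3 luminal UMIs, 42 without the MMP7 subset, 10 in cells of at most 10000 UMIs, 2 with DESeq2, 90 with no filter, 0 with the replicate block (361 before adjustment) and 1 against TPM1-high cells alone. Leaving out 1 library gave 3 to 185. The 37 genes at least 2-fold apart from the other gated cells were 126 against TPM1-high cells. They were 114 without LL replicate 1 and 41 to 51 with another library left out. That rule asks for agreement in every library, so it is easier to meet with fewer libraries, whichever is left out. Other causes of these changes were not tested. With 2 ewes per stage, most 2-fold differences were beyond the test's reach.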

Other observations

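A pair of genes without a symbol were at 0 in every library of 1 stage in TPM1-low FABP4-negative cells. ENSOARG00000002980 had 0, 0, 203 and 181 UMIs, found in 33.0% and 31.4% of LL members, and was at least 84.7-fold higher in LL against a floor of 3 counts over both LH libraries. edgeR gave it an adjusted p of 0.0635 in the class, below 0.05 in 10 of 20 alternatives, and 0.000356 in TPM1-high cells. It averaged 0.376 CPM in LH and 204 CPM in LL in EPCAM-positive cells, and 0 and 133 CPM in DCN-high cells. ENSOARG00000000586 had 6, 27, 0 and 0 UMIs, at least 16.6-fold lower in LL against the same floor over the LL libraries (edgeR adjusted p = 0.978).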
